A study of Mytilus galloprovincialis with 40 samples.

Results

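The step between January and February was measured on 4 of the 40 arrays of an annual loop, the arrays whose titles name the digestive gland in February and in January. They were chosen by title alone, without any measured value. The whole series followed female mussels, *Mytilus galloprovincialis*, of the Bizerta Lagoon in Tunisia over 12 months, and each array set a single animal of one month against a single animal of the month before. The tested animals were females collected in February 2008 and the comparison animals were females collected in January 2008, 1 of each per array, all wild, untreated and taken from the gonad stage most represented in their month. February was labelled in Cy5 and January in Cy3 on replicates 1 and 3, and the dyes were swapped on replicates 2 and 4. The study's experiments on gonads took January for the development stage and February for the ripe stage, so the month and the stage of the gonad cannot be told apart here.

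The digestive gland of mussels takes up and digests filtered algae inside its cells, stores lipid and glycogen, and detoxifies. It exchanges reserves with the gonad over the year, and in temperate mussels late winter is commonly a time of gamete ripening. Each array carried 1920 cDNA clones, printed in 2 spots each, which are pieces of mussel transcripts that bind the labelled cDNA of both animals. A log2 ratio of 1 means that the February animal gave a signal 2-fold that of the January animal. The clones are known here only by their position codes, and none of the 1920 codes was found among the 43856 entries of the gene table used here. Genes, pathways and markers of the digestive gland or of other tissues were therefore not analysed here, and several clones may carry the same transcript. Because whole pieces of gland were extracted, a change in the number of cells of a type and a change in the RNA per cell cannot be told apart.

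More clones were higher in February than lower. In the limma fit over the loop, 59 of 1920 clones (3.07%) were called, with a Benjamini-Hochberg adjusted p under 0.05 and log-odds B above 0. Of these, 43 (2.24% of all clones) were higher in February than in January and 16 (0.833%) were lower. The 43 higher clones had a median fitted log2 difference of 1.43, with a range of 0.47 to 3.87, and 10 of them had fitted values at 4-fold or more, 23 between 2-fold and 4-fold and 10 under 2-fold. All 10 at 4-fold or more were not above background in any January animal, so these fitted sizes have no measured January base. After the normexp correction, 4 of the 10 had a bound over 4-fold. With the 22 clones of that kind set at their bound, the median of the 43 was 1.08. The 16 lower clones had a median of -0.69 (-0.65 with 2 clones at their bound) and a range of -2.29 to -0.35, and 12 of them were under 2-fold. A further 2 of them were also not above background in any February animal, and their bounds showed no decrease. These 2 stayed at their fitted values of -0.83 and -0.42 in the median of -0.65. The 3 called clones with the lowest B had fitted differences of -0.42 ± 0.10, 0.52 ± 0.13 and -0.61 ± 0.15 (SE), and the 3 clones just outside the limit had 0.54 ± 0.13, -0.96 ± 0.24 and 1.38 ± 0.35 (SE).

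The call count depended on single arrays: without replicate 1 the fit called 33 clones, 26 higher and 7 lower, without replicate 2 it called 41, 31 higher and 10 lower, and without replicate 4 it called 52. With no background correction 22 clones were called, 16 higher and 6 lower, and with array weights 104, 67 higher and 37 lower.

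The 4 animal pairs gave the same direction for nearly every called clone. All 43 higher clones had positive ratios on 4 of 4 arrays, and 15 of the 16 lower clones had negative ratios on 4 of 4, whereas 544 of the 1920 clones (28.3%) had the same sign on all 4. The sign count of called clones rests on the same ratios as the call and describes it. The median SD between the 4 arrays was 0.26 for the higher clones and 0.27 for the lower ones, against 0.17 over all clones.

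**Figure D1:**
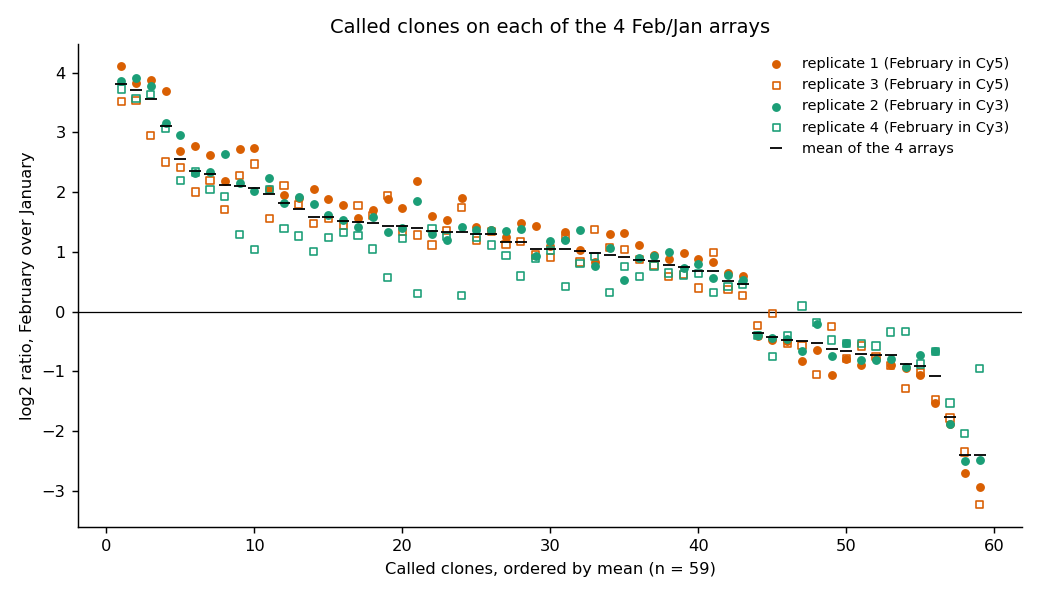
The log2 ratio of February over January (vertical axis) is plotted for each of the 59 called clones (horizontal axis, ordered by mean), with circles for replicates 1 and 2, squares for replicates 3 and 4, orange for February in Cy5 and green for February in Cy3; short black lines are the means of 4 arrays. The 43 higher clones lie above 0 on every array, and replicate 4 gave the smallest absolute ratio for 36 of the 59 clones.

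The size of the step differed between arrays. The 43 higher clones had a median log2 ratio of 1.61, 1.39, 1.35 and 1.04 on replicates 1 to 4. The 16 lower clones had a median of -0.90, -0.73, -0.84 and -0.54 on the same arrays. Replicate 1 gave the largest absolute ratio of the 4 arrays for 37 of the 59 called clones and replicate 4 for 1, and replicate 4 gave the smallest for 36. Replicate 4 also had the lowest median brightness, 6.41 on the log2 intensity scale against 6.59 to 6.77 on the other arrays, and the lowest share of clone spots above background in both dyes, 18.5% against 19.7% to 24.6%. The part of brightness in the smaller ratios was not tested.

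Among single clones, Myt01-006C06 had the highest B. Its log2 ratios of February over January were 3.87, 3.78, 2.95 and 3.64 on replicates 1 to 4. Its spot intensity was 1950, 912, 1580 and 755 in the February animals, over local backgrounds of 188, 289, 182 and 280. In the January animals it was 366, 197, 334 and 194, over local backgrounds of 310, 174, 303 and 176. The clone was above background, by 2 SD in both spots, in all 4 February animals and in none of the 4 January animals. The January level is therefore only bounded, and the clone was at least 6.92-fold higher in February, with a mean log2 ratio of 3.56 ± 0.42 (SD, n = 4 arrays), a fitted difference of 3.54 ± 0.23 (SE) and a limma adjusted p of 1.90e-13. The fitted difference was 4.96 with plain background subtraction and 2.01 with no background correction. A bound, taken after the normexp correction, sets the February mean against the lowest signal among clones above background, or the clone's own January signal where that was higher. It is not the clone's own limit of detection, and it holds for that correction only.

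The second named clone, Myt01-007H10, had the same kind of step. Its log2 ratios were 3.82, 3.91, 3.53 and 3.57, with a mean of 3.71 ± 0.19 (SD, n = 4 arrays). The intensity was 1460, 1090, 2220 and 744 in the February animals, and 352, 222, 330 and 201 in the January animals, where it was not above background on any array. The February intensity lay above the January intensity on every array, and the bound was 7.36-fold. In the loop fit the difference was 3.74 ± 0.35 (SE), with a limma adjusted p of 2.90e-09. The 4 Feb/Jan arrays fitted alone gave a limma adjusted p of 2.23e-06. The fitted difference was 5.10 with plain background subtraction and 2.19 with none.

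On the lower side, Myt01-009H05 had log2 ratios of -2.94, -2.48, -3.24 and -0.96 on replicates 1 to 4. The intensity was 264, 332, 264 and 303 in the February animals, over local backgrounds of 189, 290, 182 and 281. It was 1140, 943, 842 and 291 in the January animals, over local backgrounds of 317, 187, 303 and 176. The January signal was above background on 4 arrays and the February signal on 2. The raw January intensity of replicate 4 stood below that of the other 3 January animals, and the raw February intensities lay close together. The mean was -2.40 ± 1.01 (SD, n = 4 arrays), the fitted difference -2.29 ± 0.23 (SE) and the limma adjusted p 5.96e-09. With no background correction the fitted difference was -1.29.

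The ratios of Myt01-001E08 were -1.52, -0.65, -1.47 and -0.66, with a mean of -1.08 ± 0.48 (SD, n = 4 arrays). Its values split by dye: the mean was -1.50 over the 2 arrays with February in Cy5 and -0.66 over the 2 arrays with February in Cy3, below 0 in both. The signal was above background in none of the February animals and in 3 of the January animals. The bound set February 1.31-fold lower. In the loop fit the difference was -1.01 ± 0.13 (SE), with a limma adjusted p of 2.41e-06. The 4 Feb/Jan arrays fitted alone gave a limma adjusted p of 0.00728. The fitted difference was -1.74 with plain background subtraction and -0.41 with none.

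A missing January signal was frequent among the clones higher in February, as it was on the whole array. Of the 43, 22 were not above background in any January animal, 25 were above background in all 4 February animals, and 9 were above background in both months on all 4 arrays. Of all 1920 clones, 1000 were above background in neither month on any array, and 253 in both months on all 4 arrays. At least 1000 of all clones thus had no January signal on any array, and 0 of these 1000 were called. For the other counts in this paragraph the share of all clones is not given here. The bounds for the 22, after the normexp correction, ran from 1.16-fold to 8.64-fold, with a median of 2.11. Of the 16 lower clones, 4 were not above background in any February animal, 7 were above background in all 4 January animals, and 2 were above background in both months on all 4 arrays.

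The calls lay among the brighter clones. When the clones were divided by mean brightness into 3 sets of 640, 50 calls fell among the 640 brightest clones, 39 higher and 11 lower. In the middle set 9 of 640 were called, 4 higher and 5 lower, and in the dimmest set 0 of 640. In the dimmest set the mean ratios of the 2 dye orientations had r = -0.13 across clones, against 0.84 in the brightest set. A total of 1000 clones were above background in neither month on any array, and for these a difference was not detectable.

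**Figure D2:**
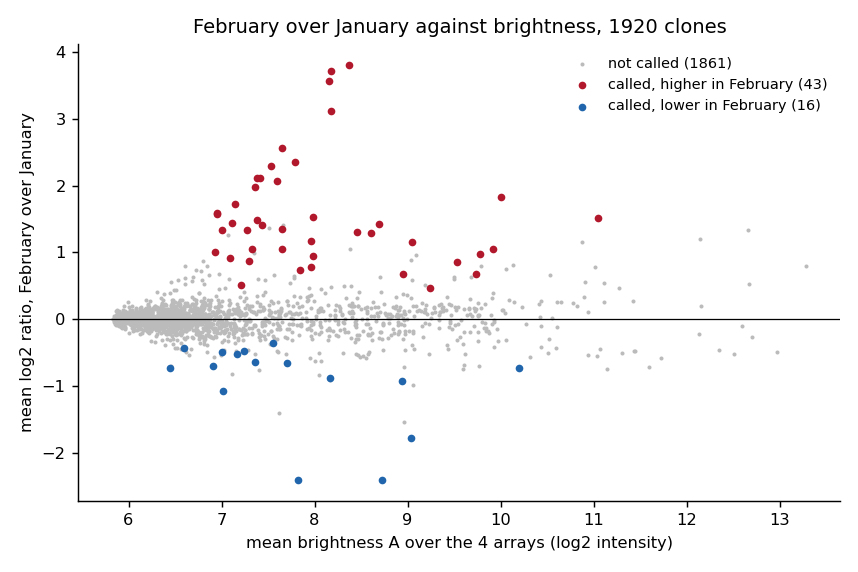
The mean log2 ratio of February over January on the 4 arrays (vertical axis) is plotted against mean brightness A, the mean log2 intensity of both dyes (horizontal axis), for 1920 clones; red points are the 43 clones called higher in February, blue points the 16 called lower and grey points the clones not called. Calls are absent among the 640 dimmest clones, and the 4 highest ratios lie at A of 8.15 to 8.37.

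A 2-fold mean ratio did not by itself make a call. Of the 45 clones whose mean over the 4 arrays was 2-fold or more in either direction, 36 were called, 32 of 39 higher and 4 of 6 lower. The 9 clones not called had a median SE of 0.39, against 0.30 for the 36 called.

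The 4 Feb/Jan arrays agreed best among bright clones. Across all 1920 clones, their 6 pairs correlated with r between 0.47 and 0.76, and across the brightest 640 with r between 0.67 and 0.90. The lowest value in both belonged to replicates 3 and 4, which had opposite dye orientations, and the highest to replicates 2 and 4, which shared one. In the dimmest 640 the 4 pairs with opposite orientation had r between -0.14 and -0.01 and the 2 pairs with the same orientation 0.18 and 0.19. Each r is taken over clones, and clones of 1 array are no replicates, so the values are a description.

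The called clones had the same direction in both dye orientations. Both orientations enter the calls, so this agreement follows in part from the selection and only describes the called clones. All 59 had the same sign in the mean of replicates 1 and 3, with February in Cy5, and in the mean of replicates 2 and 4, with February in Cy3, whereas 1086 of all clones (56.6%) did. The median absolute log2 ratio of the called clones was 1.33 with February in Cy5 and 1.08 with February in Cy3, and 45 of the 59 were larger in the first. A coefficient for the dye, fitted over the loop, was called for 51 of 1920 clones (2.66%), 1 of which was among the 59. With that term in the fit, 62 clones were called between February and January, 44 higher and 18 lower, and 58 of them were among the 59.

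**Figure D3:**
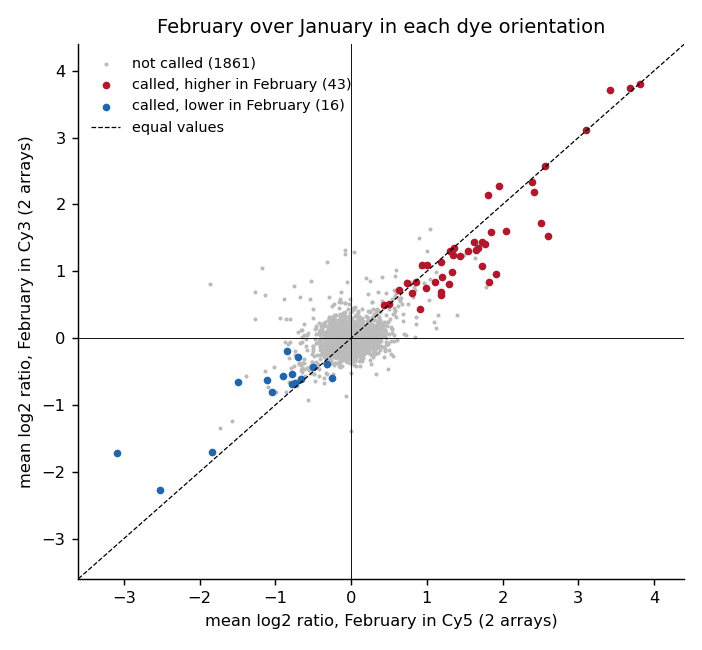
For each of 1920 clones, the mean log2 ratio of February over January on the 2 arrays with February in Cy5 (horizontal axis) is plotted against the mean on the 2 arrays with February in Cy3 (vertical axis); red and blue points are clones called higher and lower in February, and the dashed line marks equal values. All 59 called clones lie in the quadrants where both orientations have the same sign. The correlation is 0.96 over these 59 clones and 0.70 over all clones. Both axes enter the calls, so the values for the 59 clones are a description.

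Calls were spread over the array. The clones came from 20 plates of 96, of which 18 held at least 1 called clone and the most held 8. The 16 print-tip blocks of 120 clones held between 1 and 7 called clones each, and the block medians of all clones lay between -0.043 and 0.083 on the log2 scale.

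The 4 arrays carried 93.2% of the weight of the February difference in the loop fit. The other 36 arrays reach from February round to January through the other 11 steps, and their estimate shares no array with the 4. Whether it shares animals with them is not given in the sources used here. Fitted alone, the 4 arrays called 105 clones (5.47%), 64 higher and 41 lower, of which 48 were among the 59. For the 64 higher clones the median log2 difference was 1.05 on the 4 arrays and 1.35 through the other 36, and 60 of the 64 (93.8%) lay above 0 through the other arrays, against 47.3% of all clones. For the 41 lower clones the median was -0.62 on the 4 arrays and -0.12 through the other 36, and 25 of the 41 (61.0%) lay below 0, against 52.7% of all clones. The path through 11 steps is imprecise, with a median SE of 0.98 for the higher and 0.78 for the lower clones, and it called 0 clones in limma, with 176 at an unadjusted p under 0.05.

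**Figure D4:**
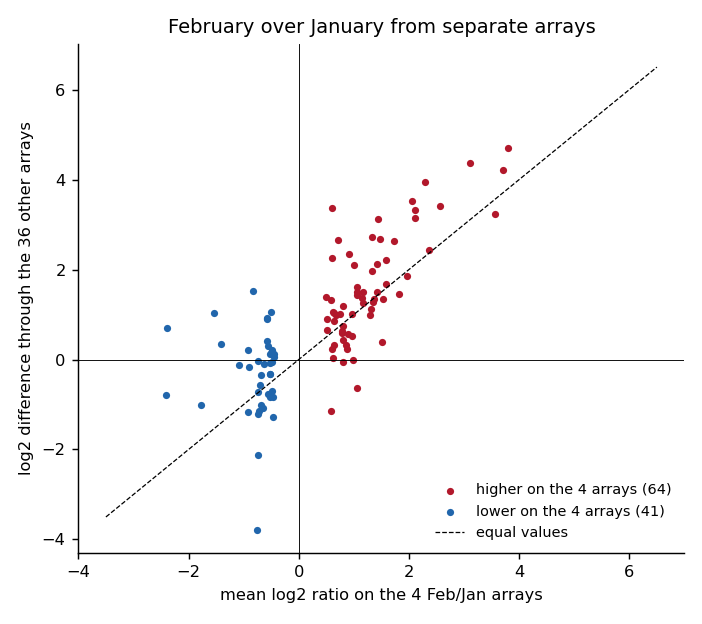
For the 105 clones called from the 4 Feb/Jan arrays alone, the mean log2 ratio of February over January on these arrays (horizontal axis) is plotted against the February minus January difference fitted through the 36 other arrays (vertical axis); red points are clones higher and blue points clones lower on the 4 arrays, and the dashed line marks equal values. Of the 64 red points 60 lie above 0 on the vertical axis, and of the 41 blue points 25 lie below 0. The estimates on the axes share no array but may share animals.

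Through the 36 other arrays Myt01-006C06 was 3.23 ± 0.89 and Myt01-007H10 4.22 ± 1.42 (SE) higher in February on the log2 scale. Myt01-009H05 was at -0.79 ± 0.63 and Myt01-001E08 at -0.12 ± 0.43 (SE), both within 2 SE of 0.

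In the steps on either side of this one the higher clones had medians near 0, but single clones moved in both directions. On the 4 arrays of March over February the 43 clones had a median log2 ratio of -0.03, with 18 higher in March and 25 lower. The quartiles were -0.42 and 0.20, against -0.11 and 0.08 over all clones. On all 4 arrays 10 of the 43 were higher and 17 lower, against 187 and 190 of all 1920 clones. On the 3 arrays of January over December the 43 clones had a median of -0.04, with 18 higher in January and 25 lower. The quartiles were -0.36 and 0.09, against -0.08 and 0.10 over all clones. On all 3 arrays 5 of the 43 were higher and 14 lower, against 270 and 326 of all 1920 clones. The 16 clones that were lower in February had a median of 0.15 in March over February and 0.29 in January over December. In each step 13 of the 16 were above 0, against 48.0% and 51.2% of all clones. The arrays of both steps also enter the loop fit that made the calls, so these counts are a description. Whether the neighbouring steps used the same February and January animals is not given in the sources used here.

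The difference between steps was tested in the same fit. The step from January to February minus the step from February to March was called for 42 of 1920 clones (2.19%), 26 above 0 and 16 below, among them 20 of the 43 higher and 7 of the 16 lower clones. The step from January to February minus the step from December to January was called for 57 clones (2.97%), 36 above 0 and 21 below, among them 18 of the 43 higher and 11 of the 16 lower clones. Both tests contain the ratios that made the 59 calls, so these counts among the 59 are a description.

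On single arrays, Myt01-006C06 had log2 ratios of March over February of -0.62, -0.27, -0.08 and -0.32, and of January over December of -0.07, 0.02 and -0.16. Myt01-007H10 was lower in March than in February on all 4 arrays, at -0.89, -1.05, -0.85 and -0.91, and had 0.45, -0.04 and 0.08 in January over December. The step from January to February exceeded the next step by 3.88 ± 0.33 for Myt01-006C06 and by 4.63 ± 0.51 for Myt01-007H10 (log2 difference and SE, limma adjusted p of 5.92e-10 and 1.22e-07). Both clones were named by their B for February against January, and the same ratios enter this difference, so it is a description. The 3 arrays of January over December gave -0.19, 1.02 and 0.82 for Myt01-001E08, and -0.19, 1.04 and -0.04 for Myt01-009H05.

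Over the calendar the median of the 43 higher clones stayed above January until October. Their median fitted log2 level relative to January was 1.43 in February, 1.35 in March and 1.49 in April. It was 2.01 in May, 2.73 in June and 2.17 in July, and after 1.39 in August it was 0.62 in September and 0.69 in October. November and December were at -0.08 and -0.02. All 43 were above January in March and in April, against 47.5% and 47.2% of all clones. In November 16 of the 43 were (37.2%), against 48.1% of all clones. The fitted levels of March and April build on the Feb/Jan ratios that made the calls, so their counts only describe the called clones. The values from May to December come from animals of the year before, and all of these levels share the error of the January animals. For the 22 clones not above background in January they are fitted values with no measured January base.

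The June quartiles of the 43 clones lay far apart, and the likeness to Myt01-006C06 over the 36 other arrays divided the clones. Of the 42 other higher clones, 21 had Pearson r of at least 0.5 with it, against 91 of all 1919 other clones (4.74%), and 0 of the 16 lower clones did. The 1919 clones include many dim ones, whereas most of the higher clones were bright, and no share matched for brightness is given. Myt01-007H10 had r = 0.91. At r of at least 0.8 there were 17 of the 42 higher clones and 33 of all clones, so the shared clones were 40.5% of the first list and 51.5% of the second. The 36 arrays hold no Feb/Jan array, but neighbouring arrays may share animals, and r is given as a description.

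The 22 clones on that side of r = 0.5, Myt01-006C06 included, had a median mean log2 ratio of 1.85 in February over January, from 0.91 to 3.81. They had a median fitted level of 4.98 relative to January in June, and 22 of 22 were higher in June than in February. The other 21 clones had a median mean log2 ratio of 1.01 in February over January, from 0.46 to 1.82. Their median fitted level was 0.87 in March, 0.99 in April and 0.26 in May, and 3 of 21 were higher in June than in February. In March over February the 2 sets had medians of -0.02 and -0.03. The arrays that gave r also set the levels of the months after February, so the courses of the 2 sets follow from the split and only describe it, and the limit of r was chosen with them in view.

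Myt01-006C06 and Myt01-007H10 had their highest fitted values relative to January in June, at 6.03 ± 0.43 and 6.26 ± 0.67 (SE) on the log2 scale. Since neither clone was above background in January on the Feb/Jan arrays, these are no measured folds. In November the fitted values were 0.08 ± 0.35 and -0.32 ± 0.53 (SE).

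**Figure D5:**
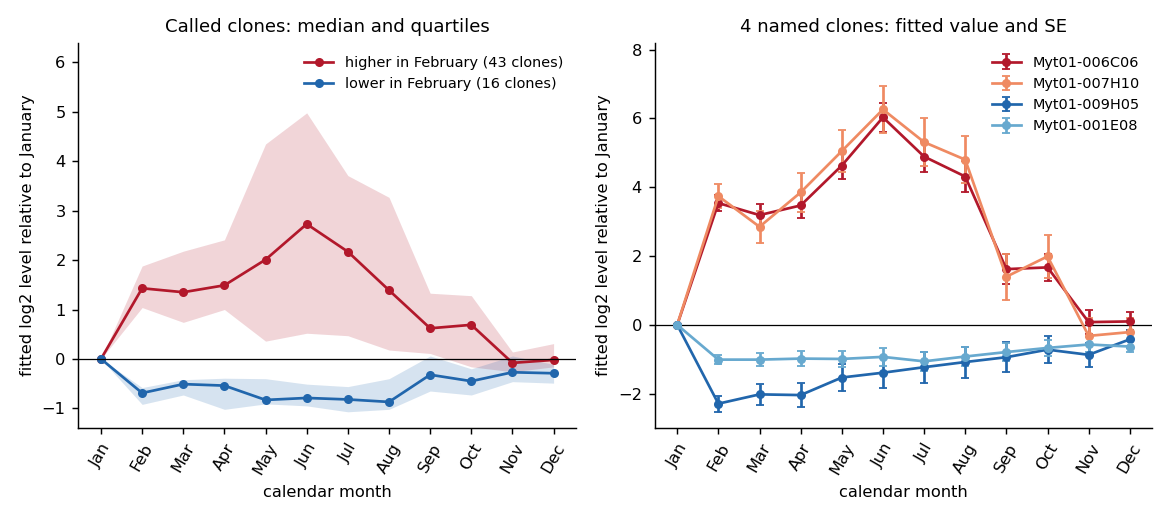
The fitted log2 level relative to January (vertical axes) is plotted by calendar month (horizontal axes), with January at 0 by construction; the left panel gives the median and quartiles of the 43 clones called higher (red) and the 16 called lower (blue) in February, and the right panel the 4 named clones with bars of 1 SE. The red median is 1.43 in February and 2.73 in June and returns to -0.08 in November, while the blue median lies between -0.27 and -0.87 in every month after January. All levels are relative to January, whose ratios to February made the calls.

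The 16 lower clones had medians below January all year. They were called for lying below January, and every level is relative to January, so medians below 0 follow in part from the selection. Their median level relative to January was -0.69 in February, -0.51 in March, -0.87 in August, -0.27 in November and -0.29 in December. Over the 36 other arrays 0 of the 15 other lower clones reached r of 0.5 with Myt01-009H05, with a highest value of 0.29, against 4 of all 1919 other clones (0.208%). With Myt01-001E08, 1 of 15 did (6.67%), against 13 of 1919 (0.677%). Likeness among the 16 clones themselves was not measured. Myt01-009H05 was at -2.02 ± 0.31 in March, -1.39 ± 0.43 in June and -0.42 ± 0.26 in December, and Myt01-001E08 was at -1.01 ± 0.18, -0.93 ± 0.26 and -0.63 ± 0.15 in the same months (SE, log2 scale).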

How the data were processed

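Spot intensity values of the 40 arrays were used as deposited: the mean foreground and median local background that the authors read with Genepix from ChipReader scans, with no normalization. The authors also deposited log2 ratios, made with limma (version not given in the sources used here), background subtraction with an offset, and loess. In 38 of 40 columns these match ratios recomputed from the scanner values within 0.01, the 4 Feb/Jan columns among them, and they served as an alternative only.

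Intensities were corrected with normexp (offset 50), normalized within arrays by global loess on the clone spots, averaged over 2 spots and turned to the later month over the earlier by the dye labels. Between-array scaling was left out. Bounds used Aquantile-scaled channels. The linear model in limma 3.58.1 (R 4.3.3) had 1 coefficient per month relative to January and 29 residual degrees of freedom over 40 arrays. A clone was called at a Benjamini-Hochberg adjusted p under 0.05 over 1920 clones and B above 0. A spot counted as above background at a foreground over its own mean local background plus 2 SD of that background, and a clone where both spots passed. On the 4 Feb/Jan arrays, 41.2%, 22.0%, 47.1% and 19.2% of clone spots were above background in February and 25.1%, 41.5%, 19.9% and 37.3% in January, the higher share in Cy5 each time, and no spot was saturated (highest foreground 26139). Duplicate spots had r of 0.66 to 0.74 across clones. Precision is limited by having 4 arrays.

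Without a table pairing codes with genes, the named clones were the 2 with the highest B in each direction among called clones with 1 sign on all 4 arrays. The clones, the groupings and the tests were chosen with earlier results of these data known. Alternatives covered background correction, normalization, a filter on dim clones, a dye term, a replicate block, array weights, the authors' ratios, the arrays in the fit, the call rule, and each array left out in turn.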

Additional observations from a re-analysis of the deposited data

How the results depend on the processing

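In all, 57 alternatives were run, of which 40 left out 1 array. More of the called clones were higher than lower in February under every alternative except the 36 other arrays alone, which called 0 clones higher and 0 lower (176 clones at an unadjusted p under 0.05). The count of 59 fell to 22 with no background correction (16 higher, 6 lower) and to 36 among the 507 clones above background in at least 1 dye on each Feb/Jan array (28 higher, 8 lower), where fewer clones were tested. It rose to 104 with array weights (67 higher, 37 lower), 105 with the 4 Feb/Jan arrays alone (64 higher, 41 lower), 118 with these and a dye term (71 higher, 47 lower) and 89 by adjusted p alone (56 higher, 33 lower). The cause of these changes in the count was not tested for any setting. Plain background subtraction called 69 clones, print-tip loess 62, the dye term 62, the authors' ratios 57, the loop without May over April 50 and median centring 46. The replicate block gave 61 calls (44 higher, 17 lower), all 59 among them. Same-numbered arrays of Feb/Jan and Mar/Feb, which have the same dye orientation, had deviations correlated at 0.10 to 0.26, and those of Feb/Jan and Jan/Dec at -0.01 to 0.03. The labels do not say that a number marks shared animals across steps. Leaving out 1 array gave 33 to 63 calls, 26 to 45 higher and 7 to 18 lower, with the lowest counts all without Feb/Jan replicate 1 (33, 26 and 7). The 4 named clones kept their call and direction under every alternative that tested them, except the 36 other arrays alone (adjusted p of 0.179, 0.298, 0.790 and 0.976). Myt01-001E08 did not pass the filter on dim clones. The background correction moved their sizes most: Myt01-006C06 was at 4.96 with plain subtraction and 2.01 with no correction, and Myt01-009H05 at -3.16 and -1.29. The mean r between the 4 arrays was 0.65, and 0.39 with plain subtraction and 0.25 with median centring.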
